A study of Mus musculus with 56 samples.

Results

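Dividing cells need a set of genes that resting cells keep low, and 37 of them were followed here in mouse barrel cortex, the sensory area in which each whisker has its own column of cells. They were chosen by gene symbol as known genes of DNA replication and mitosis, and make up 37 of the 43902 genes listed in all 3 deposited count tables. Each of the 37 was present once in every table and passed the filter on low counts in every comparison. The 37 genes were grouped by role as 2 general marks of proliferation (Mki67, Top2a), 13 genes of the entry into and course of DNA replication, and 22 genes of mitosis.

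A dividing cell copies its DNA in S phase and separates the copies in mitosis. E2F transcription factors switch on the replication genes at the G1/S boundary, among them the MCM proteins, which form the helicase that unwinds DNA, and the enzymes that make deoxynucleotides. Later the cyclin-dependent kinase Cdk1 and its cyclins, the transcription factor Foxm1 and proteins of the spindle, kinetochore and anaphase-promoting complex carry the cell through mitosis. In the first postnatal week most cortical neurons no longer divide, while astrocytes, microglia and other glial precursors still do.

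RNA was collected by translating ribosome affinity purification, in which ribosomes of 1 cell type carry the protein L10a fused to EGFP and are pulled down with their RNA (bound), apart from the RNA left behind (unbound). The knockout line was Cx3cr1CreErt2/CreErt2(Litt) Eef1a1LSL.eGFPL10a/+, the heterozygous line was Cx3cr1CreErt2/+(Litt) Eef1a1LSL.eGFPL10a/+, and the astrocyte line was Aldh1l1::eGFPL10a. Cre sits in the Cx3cr1 gene of the microglial lines, so both copies of that gene carry the insertion in the knockout line and 1 copy in the heterozygous line, while the labels give no change of Cx3cr1 in the astrocyte line. The microglial lines received 50 µg tamoxifen once daily on postnatal days 1 to 3, and the labels give none for the astrocyte line. In all lines right-side whiskers were cauterised on postnatal day 4, and cortex labelled deprived or control was taken 24 h later, on day 5. There were 5 deprived and 5 control libraries per fraction in the knockout line, 4 and 4 in the heterozygous line, and 5 and 5 in the astrocyte line, 56 in all. Each group held 3 female libraries, with 2 male ones in the knockout and astrocyte lines and 1 in the heterozygous line. The knockout libraries came from 5 mice, with the left piece deprived and the right piece control in each, and the heterozygous libraries from 4 mice with 2 pieces each. The astrocyte labels name no animals, so p-values measure the spread between libraries and not always between animals.

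Some libraries have to be named before the results. In the heterozygous line both pieces of mouse 17 are titled deprived and both pieces of mouse 21 control, so that 17R and 21L go against the side letter that the other libraries follow; groups here follow the titles. Both pieces of knockout mouse 7 held less of the 37 genes than the other knockout mice, with 693 and 674 summed CPM (counts scaled to library size by the TMM method) in bound RNA, against 828 to 1098 in the other knockout libraries. Its unbound libraries held 470 and 458, against 593 to 675. Genotype cannot be told apart from the count table or from the labelled molecule, since the knockout libraries are labelled polyA RNA and the others total RNA. Libraries held 34.6 to 56.7 M counts (M, mega) in the knockout, 32.8 to 50.7 M in the heterozygous and 10.1 to 28.6 M in the astrocyte line. The 37 genes received 7170 to 53472 counts per library in all, and the lowest count of any of them in a library was 15, for Cdc20. Exons of 11 of the 37 (Top2a, Ccne2, Mcm7, Ccna2, Foxm1, Plk1, Kif20a, Nusap1, Prc1, Cdc20 and Ube2c) overlap another annotated gene, and as the strand used in counting is not given in the sources used here, their counts are uncertain to that extent.

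The genotype and the tagged cell types were checked first. Cx3cr1 stood at 0.372 to 1.4 CPM in bound knockout libraries, against 7.24 to 13.7 in bound heterozygous libraries, and at 0.0498 to 0.24 against 0.918 to 2.11 in unbound RNA. The libraries of the lines did not overlap in either fraction. Bound over unbound, the microglial markers Csf1r, P2ry12 and Tmem119 were higher by log2 2.72, 2.30 and 2.92 in the knockout and 2.81, 2.56 and 2.78 in the heterozygous line. In the astrocyte line they stood at -0.53, -1.47 and -0.38, while the astrocyte markers Aldh1l1, Slc1a3 and Gja1 were higher by 1.93, 1.12 and 1.06. Markers of the labelled cell type were thus higher in bound RNA in each line, and the 6 border macrophage markers had a median of 2.27 and 2.29 in the knockout and heterozygous line. In these bulk libraries, fewer cells of a type and less RNA per cell cannot be told apart.

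Many cell cycle genes are known to be controlled through short DNA elements near their start, and 7 promoter windows are shown because the results turn on their genes. RefSeq promoter windows of 300 bases (250 before and 50 after the start, GRCm38.p6) were found for 30 of the 37 genes, in 32 windows; Ccne2, Mcm4, Ccna2, Foxm1, Aurkb, Kif20a and Tpx2 were not matched. Capitals mark matches on either strand to an E2F element (TTGGCGC or TTCGCGC), a CHR element (TTTGAA or TTCGAA) or a CCAAT box (CCAAT); neighbouring E2F matches can overlap each other and a CCAAT box. Mcm6 and Mcm3, helicase subunits, stand for the replication genes and hold 5 and 2 E2F matches, with 2 and 3 CCAAT boxes. Cdk1, the kinase that starts mitosis, holds 2 matches of each of E2F and CHR and 3 CCAAT boxes. Top2a, the topoisomerase that untangles copied DNA, and Ccnb2, a mitotic cyclin, hold 4 and 2 CHR matches. Cenpe, the kinetochore motor that moves chromosomes to the middle of the spindle, holds 1 CCAAT box and no other match. The window of E2f1, the factor that drives replication genes, holds no match to any of the 3. It lies wholly inside the annotated gene, whose start on the minus strand is at 154569892, so sequence before that start was not scanned. The windows of Nusap1, Tyms, Ccne1 and Birc5 hold no match either. No match says only that these letters are not in the window.
Mcm6, chr1:128359656-128359955, minus strand: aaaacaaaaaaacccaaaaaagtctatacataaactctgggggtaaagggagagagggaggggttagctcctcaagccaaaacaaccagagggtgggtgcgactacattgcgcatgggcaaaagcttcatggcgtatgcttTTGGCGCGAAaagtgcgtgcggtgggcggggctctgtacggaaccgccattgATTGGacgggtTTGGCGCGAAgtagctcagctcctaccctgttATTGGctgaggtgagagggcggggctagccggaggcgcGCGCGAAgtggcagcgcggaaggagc
Mcm3, chr1:20820263-20820562, minus strand: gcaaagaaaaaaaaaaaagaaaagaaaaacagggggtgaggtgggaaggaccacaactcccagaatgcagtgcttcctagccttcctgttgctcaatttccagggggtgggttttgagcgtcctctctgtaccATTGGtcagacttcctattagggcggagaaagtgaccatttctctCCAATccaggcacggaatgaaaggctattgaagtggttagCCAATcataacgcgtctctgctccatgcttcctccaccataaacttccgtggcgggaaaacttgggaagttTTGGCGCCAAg
Cdk1, chr10:69352863-69353162, minus strand: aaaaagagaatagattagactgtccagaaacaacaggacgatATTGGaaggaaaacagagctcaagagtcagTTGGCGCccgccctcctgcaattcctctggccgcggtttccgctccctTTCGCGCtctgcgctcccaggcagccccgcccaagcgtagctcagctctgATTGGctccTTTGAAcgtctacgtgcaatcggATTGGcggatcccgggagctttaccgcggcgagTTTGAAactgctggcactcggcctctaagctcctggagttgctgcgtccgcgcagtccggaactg
Top2a, chr11:99024140-99024439, minus strand: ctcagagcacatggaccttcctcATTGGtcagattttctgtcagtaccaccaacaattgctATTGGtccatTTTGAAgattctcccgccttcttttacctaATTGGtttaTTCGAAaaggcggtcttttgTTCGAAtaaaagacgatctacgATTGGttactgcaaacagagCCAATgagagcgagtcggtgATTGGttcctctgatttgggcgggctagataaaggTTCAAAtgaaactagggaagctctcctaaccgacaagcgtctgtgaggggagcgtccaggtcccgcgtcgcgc
Ccnb2, chr9:70421505-70421804, minus strand: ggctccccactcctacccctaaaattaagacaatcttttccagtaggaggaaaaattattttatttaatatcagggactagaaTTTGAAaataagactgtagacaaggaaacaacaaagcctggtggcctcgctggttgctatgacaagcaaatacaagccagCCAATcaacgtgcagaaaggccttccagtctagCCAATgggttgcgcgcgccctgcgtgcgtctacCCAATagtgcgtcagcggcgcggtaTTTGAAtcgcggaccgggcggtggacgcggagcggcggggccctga
Cenpe, chr3:135212313-135212612, plus strand: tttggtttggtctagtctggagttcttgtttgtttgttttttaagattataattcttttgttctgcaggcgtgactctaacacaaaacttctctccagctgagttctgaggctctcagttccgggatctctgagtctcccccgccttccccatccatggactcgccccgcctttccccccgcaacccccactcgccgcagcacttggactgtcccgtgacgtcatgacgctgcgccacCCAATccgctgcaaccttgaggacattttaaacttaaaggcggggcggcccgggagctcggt
E2f1, chr2:154569377-154569676, minus strand: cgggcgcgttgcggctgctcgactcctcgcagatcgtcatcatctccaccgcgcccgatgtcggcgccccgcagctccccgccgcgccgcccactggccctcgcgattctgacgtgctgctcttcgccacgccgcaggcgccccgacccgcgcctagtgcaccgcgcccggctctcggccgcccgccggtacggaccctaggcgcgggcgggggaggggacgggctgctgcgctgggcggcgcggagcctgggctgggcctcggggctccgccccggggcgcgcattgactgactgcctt

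The elements were spread unevenly over the roles. An E2F match stood in 4 of the 6 windows of MCM genes (66.7%) and in 33.3% of the 12 replication windows, against 16.7% of the 18 mitosis windows and 3.89% of all 32851 RefSeq mouse promoter windows. A CHR match stood in 77.8% of the mitosis windows, 16.7% of the replication windows and 19.2% of all promoters. CCAAT boxes were found in 88.9% of the mitosis windows, 75% of the replication windows and 37.4% of all promoters. A CHR match together with a CCAAT box stood in 77.8% of the mitosis windows and 7.52% of all promoters. These are letter matches in a fixed window, not binding sites, and the windows of E2f1 and Mcm7 lie inside the annotated genes.

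**Figure D1:**
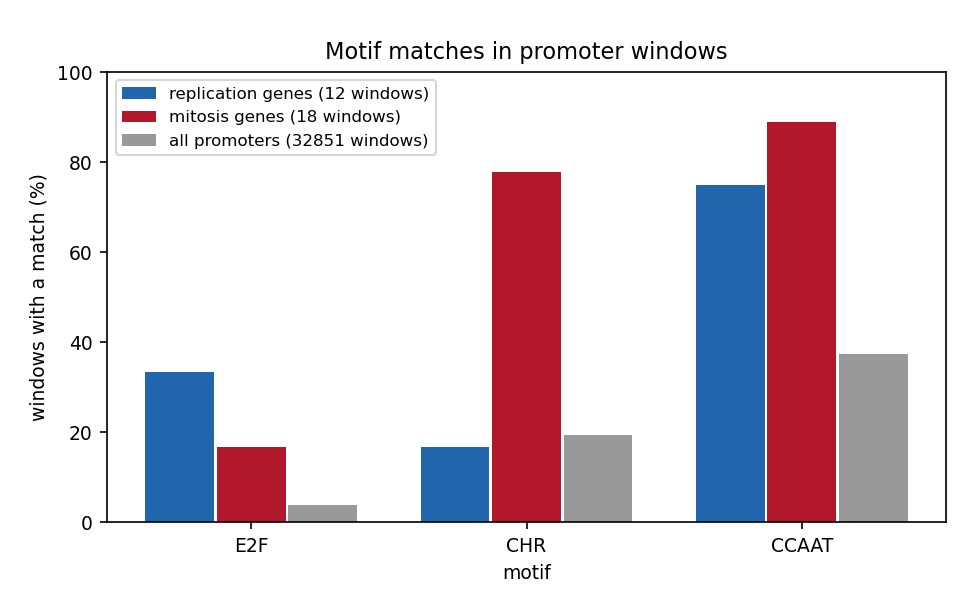
Share of 300-base promoter windows with at least 1 match to each motif (y axis, %), for replication genes (12 windows), mitosis genes (18 windows) and all RefSeq mouse promoters (32851 windows). CHR matches stand in 77.8% of mitosis windows, against 16.7% of replication windows and 19.2% of all promoters.

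Transcript levels between genes were compared per length, as CPM per kilobase of exon. In bound RNA of the knockout line the highest medians over libraries were those of Cenpe (25.5), Pcna (18.4) and Mki67 (12.5), and the lowest that of Kif20a (0.45), a kinesin of cell cleavage. Bound RNA of the heterozygous line gave the same first 3, with Cenpe at 27.0 and Mki67 at 13.2, and Kif20a last at 0.50. In bound RNA of the astrocyte line Pcna, the clamp that holds polymerases on DNA, came first at 23.3, followed by Mki67 (18.7) and Cenpe (17.1). In unbound RNA of the knockout line the order was Pcna (19.8), Rrm2 (11.8) and Mki67 (7.70), and Cenpe stood at 3.19. Cenpe thus led in bound RNA of both microglial lines and was not among the first 3 in unbound RNA of the knockout line.

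The next question was whether the cell cycle genes were higher in bound than in unbound RNA. Bound RNA held more of many of them in all 3 lines. In the knockout line 15 of the 37 were higher in bound RNA and 5 lower, where 31.6% of all 19681 genes tested were higher and 30.4% lower (edgeR quasi-likelihood test, Benjamini-Hochberg adjusted p under 0.05). Of the 37, 24 were higher and 3 lower in the heterozygous line, where 31.8% and 30.8% of 19275 genes were, and 26 were higher and 2 lower in the astrocyte line, where 31.5% and 27.6% of 18324 genes were. The median log2 difference of the 37 was 0.13, 0.32 and 0.35 in the 3 lines, beside -0.01, -0.01 and 0.03 over all genes tested. Summed over the 37, CPM ran from 674 to 1098 (median 930) in bound and 458 to 675 (median 611) in unbound RNA of the knockout line. The sums were 857 to 1056 (median 1000) bound and 521 to 697 (median 584) unbound in the heterozygous line, and 835 to 1035 (median 905) bound and 529 to 617 (median 589) unbound in the astrocyte line. Bound and unbound sums overlapped in the knockout line, by 1 library, and did not overlap in the other lines.

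**Figure D2:**
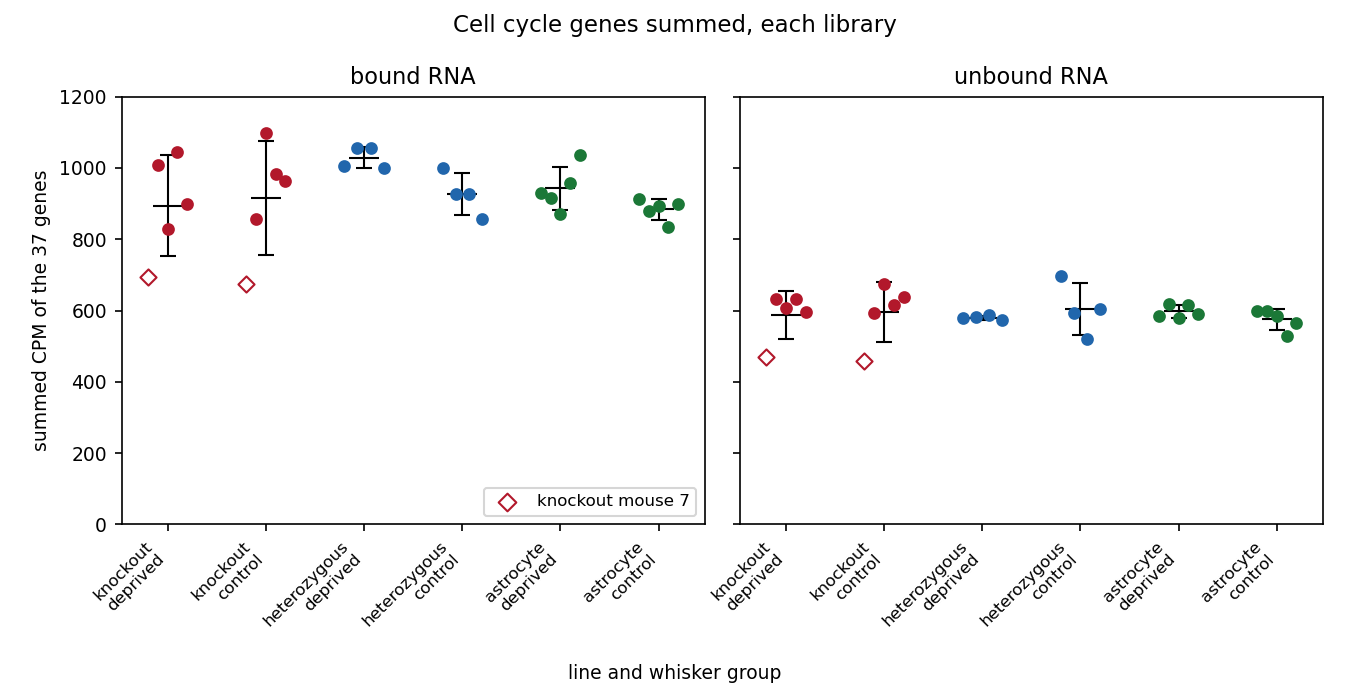
Summed CPM of the 37 cell cycle genes (y axis) in each library of bound (left) and unbound RNA (right), by line and whisker group, with mean and SD. Bound libraries sit between 674 and 1098 and unbound libraries between 458 and 697, and the open diamonds of knockout mouse 7 are the lowest of their line in both.

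Values of other cells and of RNA makeup moved along with the fractions. The summed markers of neural progenitors were 349 to 702 CPM bound against 144 to 241 unbound in the knockout line, 441 to 670 against 154 to 232 in the heterozygous line and 397 to 669 against 156 to 213 in the astrocyte line. Of the 10 progenitor markers, 4 were higher and 3 lower in bound RNA of the knockout line, 3 and 3 in the heterozygous and 7 and 0 in the astrocyte line. The sums thus do not stand for each marker. Bound and unbound medians in the knockout line were 11.4 and 14.5 CPM for Sox2, 7.42 and 8.21 for Pax6 and 6.09 and 5.01 for Eomes. In the heterozygous line they were 10.8 and 14.3, 7.88 and 8.38, and 4.14 and 3.61. Medians of all 3 were higher in bound RNA of the astrocyte line. Every bound library held more Cspg4, a marker of oligodendrocyte precursors, than any unbound one of its line. It was 6.35 to 12.9 against 2.85 to 4.71 CPM in the knockout line. Another such marker, Pdgfra, overlapped in each line, with lower medians in bound RNA (40.0 against 53.2 CPM in the astrocyte line). Olig2 overlapped in the microglial lines, with bound and unbound medians of 19.9 and 21.9 CPM (knockout) and 19.5 and 23.2 (heterozygous). It was higher in bound RNA of the astrocyte line. Of the 12 oligodendrocyte lineage markers, 2 were higher and 5 lower in bound RNA of either microglial line. Of 11 tested in the astrocyte line, 4 were higher and 4 lower. Sums of this list had bound and unbound medians of 220 and 239 CPM (knockout), 216 and 238 (heterozygous) and 251 and 231 (astrocyte). Mitochondrial ribosomal RNA took 1.4 to 3.53% of bound counts in all lines, against 22.0 to 31.1% of unbound counts in the knockout, 20.5 to 28.6% in the heterozygous and 3.5 to 6.11% in the astrocyte line. Neuronal markers summed to 8786 to 10994 CPM in bound and 11719 to 14504 in unbound RNA of the knockout line. In the heterozygous line these sums were 8620 to 11500 and 11847 to 14414, and in the astrocyte line 6273 to 7978 and 10103 to 11221. Bound RNA thus also held RNA of untagged cells, and a higher bound value alone does not place a gene in the tagged cells. The part of these values in the differences was not tested. Scaled by library totals alone, the median of all genes moved to 0.23 in the knockout and 0.18 in the heterozygous line, and 21 and 29 of the 37 were then higher.

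Of the general marks, Mki67 (chr7:135689784-135716361, minus strand), which codes for the coat protein of mitotic chromosomes, Ki-67, was among the most strongly bound. It ranged from 86.1 to 156 CPM (median 126) in bound and 49.7 to 106 (median 77.5) in unbound RNA of the knockout line, which overlapped. The heterozygous line held 114 to 152 CPM bound and 59.1 to 87.0 unbound, and the astrocyte line 166 to 250 bound and 83.5 to 95.6 unbound, without overlap. The log2 differences were 0.68 ± 0.13 (adjusted p = 5.7e-05), 0.96 ± 0.07 (adjusted p = 1.4e-10) and 1.05 ± 0.05 (adjusted p = 2.1e-15) in the knockout, heterozygous and astrocyte line (edgeR; ± is the standard error throughout). Top2a was higher in bound RNA in each line too, at 0.55 ± 0.12, 0.64 ± 0.08 and 0.43 ± 0.05.

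The MCM helicase genes were nearly all higher in bound RNA, 5 of 6 in the knockout, 6 of 6 in the heterozygous and 5 of 6 in the astrocyte line. Mcm3 (chr1:20802968-20820312, minus strand) had the largest differences of the 6. It ranged from 6.78 to 16.5 CPM (median 14.0) bound and 5.23 to 8.12 (median 7.18) unbound in the knockout line, where mouse 7 held the lowest value of each. In the heterozygous line it ranged from 12.3 to 19.1 bound and 6.56 to 8.54 unbound, and in the astrocyte line from 9.06 to 12.8 bound and 4.14 to 6.77 unbound, so that every bound library lay above every unbound one. The log2 differences were 0.84 ± 0.13, 1.08 ± 0.06 and 1.12 ± 0.08 (edgeR adjusted p = 3.9e-06, 8.5e-12 and 1.9e-12). Mcm2 (0.36, 0.57 and 0.54), Mcm4 (0.34, 0.51 and 0.27), Mcm5 (0.45, 0.53 and 0.27) and Mcm7 (0.32, 0.39 and 0.33) passed in each line, although Mcm5 lost its call in the astrocyte line in 8 of 20 fits that left out 1 library (adjusted p = 0.055 to 0.068). Mcm6 passed in the heterozygous line alone, at 0.31 ± 0.06, and with the tissue piece as a replicate block in the knockout line as well (0.14 ± 0.06, edgeR adjusted p = 0.038).

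The other replication genes were mixed. Rrm1, the large subunit of ribonucleotide reductase, was higher in bound RNA in each line, at 0.57 ± 0.07, 0.61 ± 0.07 and 0.35 ± 0.06. Its partner Rrm2, the small subunit, was lower in the knockout line (-0.33 ± 0.07) and stood at -0.16 and 0.04 in the others, which did not pass. Pcna, the most abundant replication gene per length, showed little difference, at 44.1, 48.0 and 56.0 median CPM in bound RNA of the 3 lines and 47.6, 47.5 and 54.1 in unbound RNA, with log2 differences of -0.11, -0.04 and 0.07 that did not pass. Tyms, the thymidylate synthase, was lower in the knockout line at -0.36 ± 0.13 (adjusted p = 0.024, and 0.052 without the unbound control library of mouse 18). Ccne2, a cyclin of the G1/S boundary, was lower in bound RNA of the astrocyte line at -0.57 ± 0.07, and Ccne1 passed in no line.

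E2f1 (chr2:154559407-154569892, minus strand), the transcription factor that drives replication genes, was higher in bound RNA of each line, by unlike amounts. Its bound and unbound medians were 13.8 and 10.4 CPM in the knockout, 13.4 and 11.5 in the heterozygous and 12.1 and 6.90 in the astrocyte line. The log2 differences were 0.39 ± 0.10 (adjusted p = 0.0017), 0.19 ± 0.07 (adjusted p = 0.027) and 0.82 ± 0.08 (adjusted p = 7.0e-10). The call of the heterozygous line was lost without any 1 of 4 libraries, the bound libraries of pieces 15R, 17L and 21R and the unbound library of 15R (adjusted p = 0.053 to 0.059).

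Cenpe (ENSMUSG00000045328, chr3:135212537-135273611, plus strand, GRCm38) stood far apart from the other 36. In the knockout line it ranged from 161 to 324 CPM (median 220) in bound and 21.2 to 33.7 (median 27.5) in unbound RNA. In the heterozygous line it ranged from 178 to 250 (median 233) bound and 24.5 to 30.3 (median 27.6) unbound, and in the astrocyte line from 122 to 206 (median 148) bound and 28.6 to 37.6 (median 31.5) unbound. No bound library came near an unbound one. These are 8.01-fold, 8.16-fold and 4.69-fold differences (log2 3.00 ± 0.12, 3.03 ± 0.06 and 2.23 ± 0.06; edgeR adjusted p = 8.9e-16, 5.0e-19 and 6.8e-22), and 0.432%, 0.586% and 1.40% of the genes tested had a larger one. Cenpf, its partner at the kinetochore, had 0.34, 0.24 and 0.31. Leaving Cenpe aside, 14, 23 and 25 of the remaining 36 were higher in bound RNA.

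Of the 22 genes of mitosis, 6 were higher in bound RNA of the knockout, 14 of the heterozygous and 17 of the astrocyte line, which is 27.3%, 63.6% and 77.3%, where 31.6%, 31.8% and 31.5% of all genes were higher. The share in the knockout line was thus near that of all genes, and the counts were not tested against each other. Foxm1, the transcription factor of the mitotic genes, was alike in the 3 lines, at 0.58 ± 0.08, 0.61 ± 0.08 and 0.61 ± 0.08 in the knockout, heterozygous and astrocyte line. Bub1b, a spindle checkpoint kinase (0.65, 0.61 and 0.73), and Kif23, a kinesin of the central spindle (0.65, 0.72 and 0.62), passed in each line as well. Tpx2, a spindle assembly factor, passed at 0.22, 0.33 and 0.51, but in the knockout line it lost its call in 12 of 20 fits that left out 1 library (adjusted p up to 0.115). The mitotic genes Cdk1, Ccnb2, Birc5, Plk1, Kif11, Hmmr and Cdc20 passed in the heterozygous and astrocyte lines; in the knockout line they stood between 0.01 and 0.29 and did not pass. With the tissue piece as a replicate block, which pairs the bound and unbound library of a piece, Cdk1 (0.22 ± 0.07, edgeR adjusted p = 0.012) and Cdc20 (0.30 ± 0.09, adjusted p = 0.0040) passed in the knockout line too. Plk1, a mitotic kinase, had 2.30 bound and 2.18 unbound median CPM in the knockout (0.10 ± 0.19), 2.98 and 1.87 in the heterozygous (0.66 ± 0.15) and 2.86 and 1.44 in the astrocyte line (1.16 ± 0.14).

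A few mitotic genes were lower in bound RNA. Nusap1, which bundles spindle microtubules, was lower in all 3 lines, at -0.50 ± 0.13, -0.41 ± 0.06 and -0.18 ± 0.06. Ccnb1, the main cyclin of Cdk1, held 2.21 to 5.57 CPM bound and 4.53 to 8.40 unbound in the knockout line and 3.51 to 5.76 bound and 4.64 to 7.74 unbound in the heterozygous line, and it was lower in both, with log2 differences of -0.74 ± 0.15 and -0.49 ± 0.10. In the astrocyte line it stood at -0.01 ± 0.09. Ube2c, the ubiquitin-conjugating enzyme of the anaphase-promoting complex, had medians of 8.58 bound and 12.4 unbound CPM in the knockout (-0.51 ± 0.15), 11.3 and 12.0 in the heterozygous (-0.13 ± 0.10) and 15.3 and 10.0 in the astrocyte line (0.60 ± 0.06). Every bound library of the astrocyte line lay above every unbound one for Ube2c. Prc1, a protein of the central spindle, was lower in the heterozygous (-0.23 ± 0.08) and higher in the astrocyte line (0.25 ± 0.07). Aurka and Kif20a passed in no line. With the tissue piece as a replicate block (edgeR), Prc1 (-0.23 ± 0.07, adjusted p = 0.0056) and Ccna2 (-0.23 ± 0.06, adjusted p = 0.0016) were lower in the knockout line, Kif20a (0.33 ± 0.12, adjusted p = 0.023) and Aurkb (0.25 ± 0.11, adjusted p = 0.043) were higher in the heterozygous line, and Aurka (0.34 ± 0.13, adjusted p = 0.029) was higher in the astrocyte line.

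**Figure D3:**
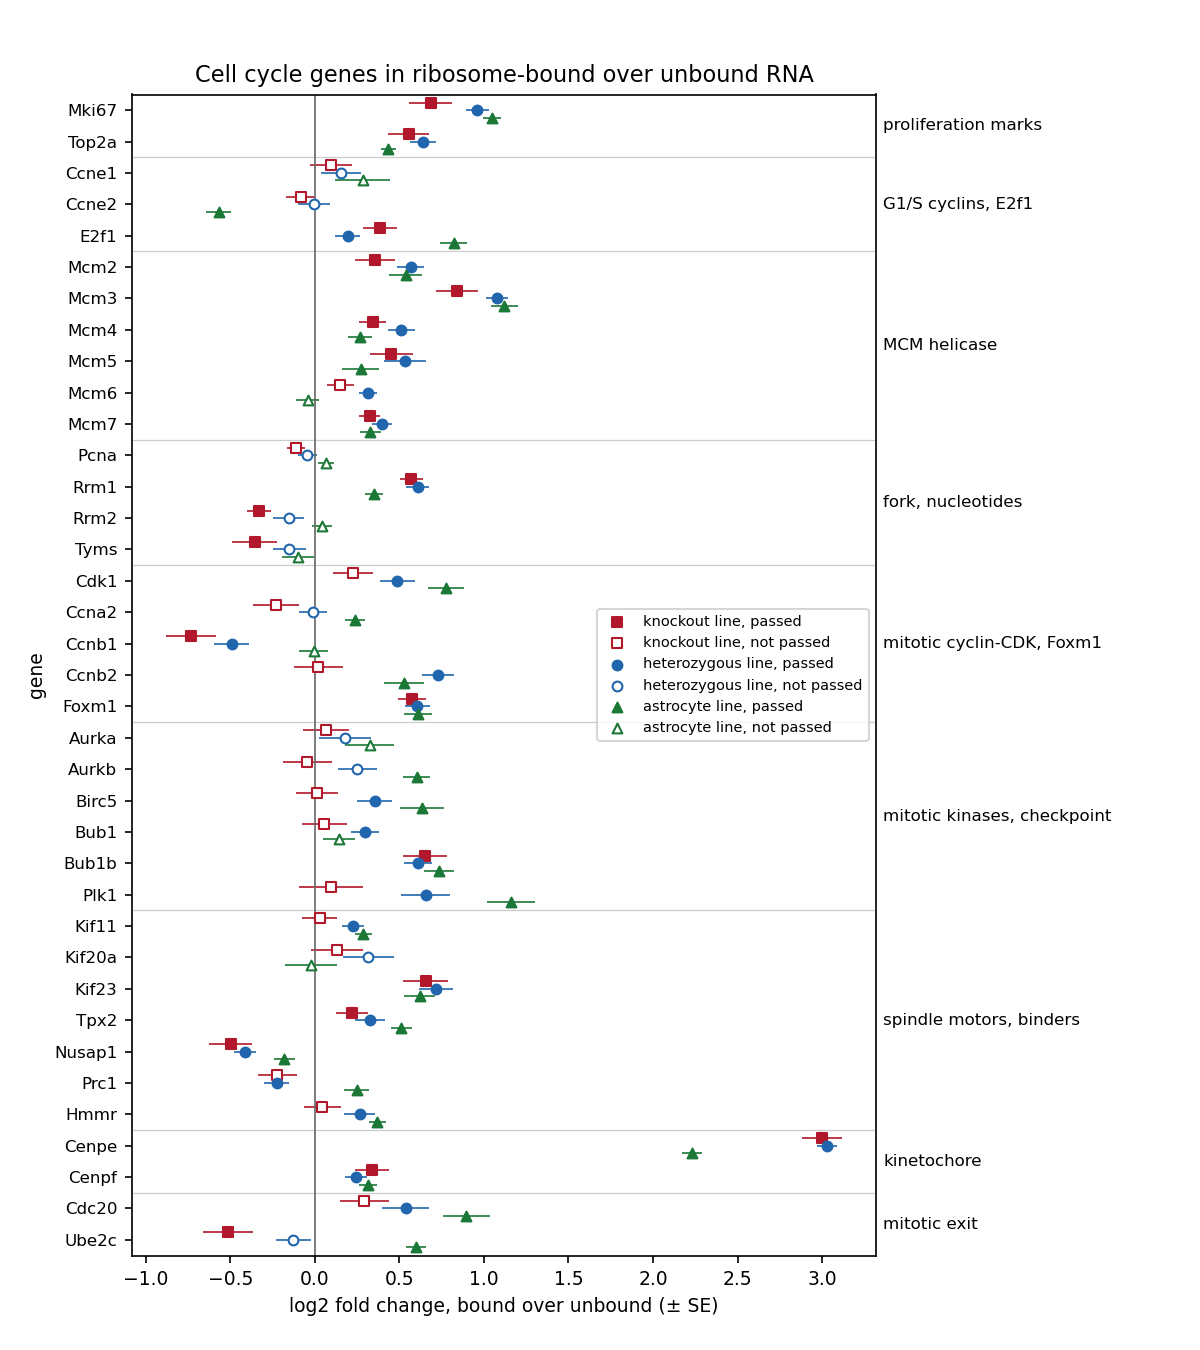
Log2 fold change of bound over unbound RNA with its standard error (x axis) for each of the 37 genes (y axis, by role) in the knockout, heterozygous and astrocyte line; filled points passed at an adjusted p under 0.05. Cenpe stands at 3.00, 3.03 and 2.23, while Ube2c lies at -0.51, -0.13 and 0.60.

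The 97 other cell cycle genes on a wider list, of which 95 were tested, had 34 higher and 27 lower in the knockout line, 35.8% and 28.4%, which is near the 31.6% and 30.4% of all genes. They had 43 higher and 22 lower in the heterozygous line, 45.3% and 23.2% against 31.8% and 30.8% of all genes, and 53 and 13 in the astrocyte line, 55.8% and 13.7% against 31.5% and 27.6%. Their medians were 0.03, 0.17 and 0.29 in the 3 lines. Higher ones with the smallest p included the spindle pole gene Aspm (1.15 and 1.12 in the heterozygous and astrocyte line), the citron kinase gene Cit (1.31 and 1.32 in the knockout and heterozygous line) and the transcription factor E2f3 (1.03 in both). Lower ones included the replication factor C subunit Rfc4 (-0.75 and -0.74 in the knockout and heterozygous line) and Rb1 (-0.36 in the astrocyte line), the retinoblastoma protein that holds E2F factors back.

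Tested directly, the difference between bound and unbound RNA was unlike in the heterozygous and astrocyte lines for 14 of the 37. Of these 3 were higher and 11 lower in the heterozygous line, where 17.1% of all 21503 genes were higher and 24.7% lower, with a median of -0.16 for the 37 beside -0.14 for all genes. Cenpe (0.72 ± 0.08, adjusted p = 3.0e-09), Ccne2 (0.49 ± 0.12) and Mcm6 (0.28 ± 0.09) had the higher bound over unbound value in the heterozygous line (edgeR). Ube2c (-0.80 ± 0.11, adjusted p = 2.9e-07), E2f1 (-0.70 ± 0.11, adjusted p = 1.4e-06), Ccnb1 (-0.56 ± 0.13) and Prc1 (-0.55 ± 0.10) had the higher one in the astrocyte line. Of the 22 mitotic genes 1 was higher and 9 lower, and of the 13 replication genes 2 and 2. The split depended on the processing. With library totals as the only scaling, which moved the median of all genes to 0.15, 11 of the 37 were higher and 3 lower, among them 4 and 2 of the mitotic and 6 and 1 of the replication genes. Without the filter on low counts 4 were higher and 4 lower. The calls of Cdk1, Rrm2 and Tpx2 were lost in 23, 23 and 26 of 36 fits that left out 1 library. Wider-list genes gave 10 higher, among them Ccnd1, and 30 lower, among them Cdk4 (-0.78) and Ccnd2 (-0.72). The 2 lines differ in tamoxifen, intact Cx3cr1 copies, tag construct, depth and count table as well as in the tagged cell, and these cannot be told apart.

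Between the microglial lines the same difference passed for none of the 37, nor for any of 20676 genes (0% called, 712 genes at an unadjusted p under 0.05; DESeq2 called 0 too). Of the 37, 33 lay below 0, that is with the lower bound over unbound value in the knockout line, and the median was -0.16 beside 0.01 over all genes. Ccnb2 had the smallest p (-0.70 ± 0.19, unadjusted p = 0.00070, edgeR adjusted p = 1). Its bound libraries held 3.24 to 8.13 CPM in the knockout and 5.04 to 8.52 in the heterozygous line, and its unbound libraries 3.16 to 6.74 and 3.33 to 5.30, so the ranges overlapped.

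Whether whisker loss moved the cell cycle genes was asked in each line and fraction. In bound RNA of the heterozygous line 6 of the 37 were higher in deprived cortex and 1 lower, where 5.52% of 18001 genes were higher and 4.76% lower. The higher ones were Cdk1, Mcm3, Rrm1, Pcna, Mcm6 and Top2a, and the lower one was E2f1. By role these were 2 of 6 MCM genes, 2 of 4 genes of the fork and of nucleotide supply, 1 of 2 general marks and 1 of 22 mitotic genes, with E2f1 the member that moved the other way. Of the 37, 31 lay above 0 with a median of 0.22, beside 0.01 over all genes, and 11 had an unadjusted p under 0.05. Summed CPM of the 37 was 1000 to 1056 in deprived and 857 to 999 in control libraries.

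E2f1 held 10.8, 10.2, 12.2 and 10.8 CPM in the deprived pieces 14L, 15L, 17L and 17R, and 14.6, 18.8, 14.6 and 18.3 CPM in the control pieces 14R, 15R, 21L and 21R. Every deprived library lay below every control library, at a log2 difference of -0.60 ± 0.11 (edgeR adjusted p = 0.0054). Mcm3 went the other way, with 19.0, 17.5, 18.1 and 19.1 CPM in the same deprived pieces and 14.3, 14.1, 12.3 and 12.6 CPM in the control pieces. Its groups did not overlap either, and the difference was 0.45 ± 0.09 (adjusted p = 0.0087, edgeR). Cdk1 held 10.7, 11.5, 11.4 and 12.6 CPM in deprived and 7.98, 8.50, 5.53 and 8.30 CPM in control pieces, with 21L the lowest, a difference of 0.60 ± 0.14 (edgeR adjusted p = 0.015).

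Pcna held 57.3, 49.8, 55.5 and 55.5 CPM in deprived and 46.1, 42.3, 40.8 and 41.9 CPM in control pieces (0.34 ± 0.07, edgeR adjusted p = 0.012). Rrm1 held 50.6, 46.0, 40.3 and 41.2 CPM in deprived and 35.0, 34.0, 35.8 and 33.4 CPM in control pieces (0.35 ± 0.08, edgeR adjusted p = 0.017). Mcm6 held 34.9, 36.8, 30.7 and 32.5 CPM in deprived and 27.4, 27.2, 27.3 and 24.3 CPM in control pieces (0.33 ± 0.08, edgeR adjusted p = 0.023). None of these 3 overlapped between the groups, whereas Top2a did. All genes that passed were picked by the test on these same libraries, so such gaps are no further support. Top2a held 99.9, 109, 108 and 96.6 CPM in deprived and 97.3, 76.1, 76.2 and 76.7 CPM in control pieces, with 14R the high control (0.33 ± 0.09, edgeR adjusted p = 0.031). Mki67 did not pass, at 114, 132, 140 and 131 CPM in deprived and 152, 134, 151 and 128 CPM in control pieces (-0.14 ± 0.08, edgeR adjusted p = 0.31). Mcm2 (0.31 ± 0.12, adjusted p = 0.12) and Kif11 (0.23 ± 0.09, adjusted p = 0.11) did not pass.

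**Figure D4:**
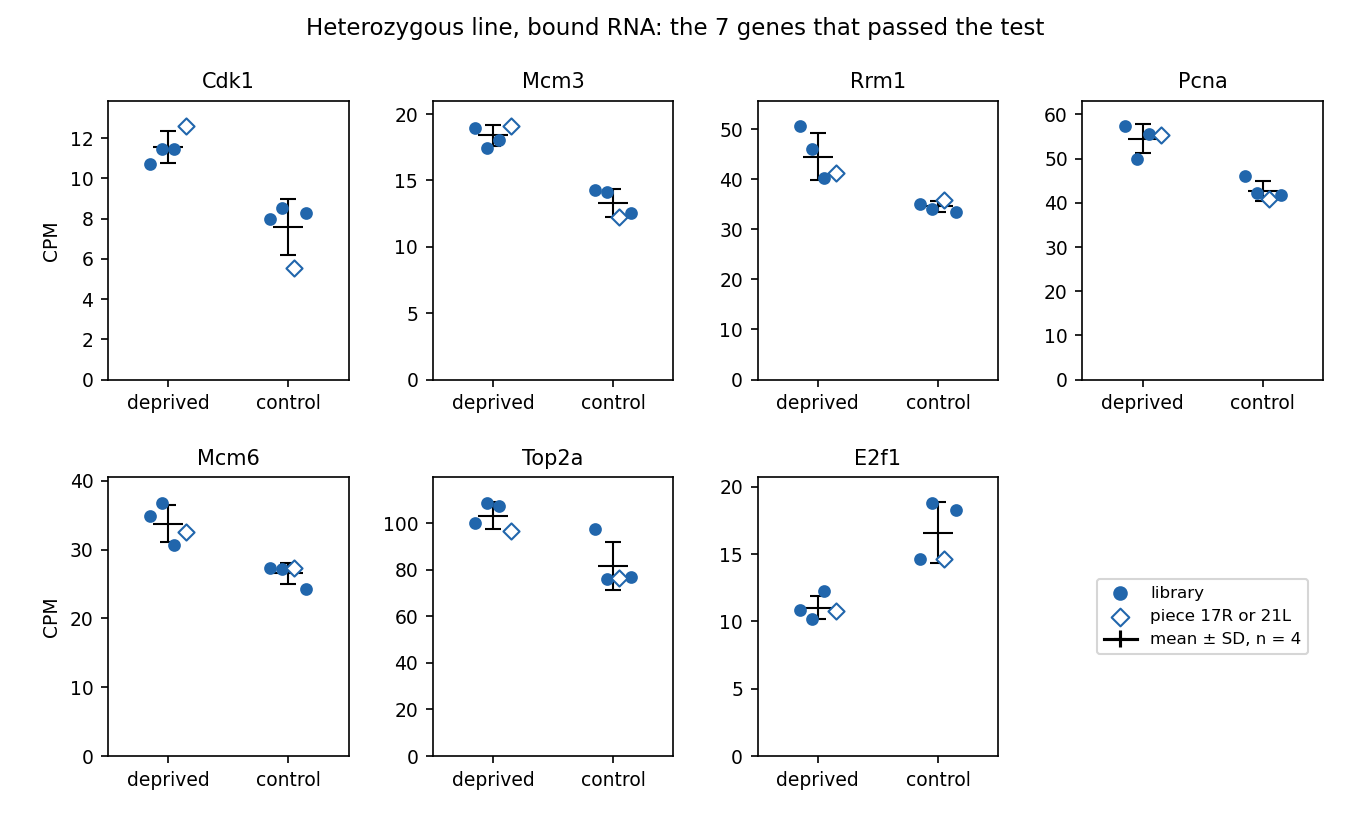
CPM (y axis) of the 7 genes that passed between the whisker groups in bound RNA of heterozygous mice, with mean and SD (n = 4 each); open diamonds are pieces 17R and 21L. E2f1 is lower in all 4 deprived libraries, the others are higher, and Top2a alone overlaps. The genes were picked by the test on these libraries, so the gaps are no further support.

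These calls depended on how the pieces were grouped and on which were kept. Grouped by the side letter, 0 of the 37 were higher and 0 lower (edgeR; 3 at an unadjusted p under 0.05), with E2f1 at -0.40 ± 0.18 (adjusted p = 0.91), and without 17R and 21L 1 was higher, Rrm1, and 1 lower, E2f1 (edgeR adjusted p = 0.046 and 0.021). In mice 14 and 15 alone, with the deprived and control piece of each mouse paired, the same 2 genes passed (adjusted p = 0.016 for both). Leaving out 1 library at a time gave 3 to 8 higher and 1 lower throughout. It was 3 without deprived 15L or control 21R and 8 without control 14R. Top2a, Mcm6 and Rrm1 lost their calls in some of these fits (adjusted p = 0.052 to 0.096), and Cdk1, Mcm3, Pcna and E2f1 in none.

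Markers of several cell types moved with the same groups. Summed CPM in deprived and control bound libraries was 616 to 728 and 361 to 521 for the 22 microglial markers (12 higher, median 0.53), 62.5 to 83.2 and 9.00 to 41.2 for the 6 border macrophage markers (4 higher, median 1.35) and 534 to 670 and 441 to 559 for the 10 progenitor markers (4 higher). It was 1213 to 1314 and 1060 to 1138 for the 20 astrocyte markers (6 higher), and 8620 to 9521 and 9631 to 11500 for the 12 neuronal markers (1 higher, 3 lower). The progenitor factor Eomes held 6.07 to 7.56 CPM in deprived and 0.967 to 2.21 CPM in control libraries, and the microglial receptor Csf1r 40.4 to 45.7 and 24.5 to 32.7. The progenitor factors Sox2 and Pax6 spanned less, 9.37 to 12.8 and 5.58 to 10.1 CPM over all 8 bound libraries. The part of these markers in the result was not tested. In the wider list 5 of 95 genes were higher (5.26%, near the 5.52% of all genes), among them cyclin D1 (Ccnd1, 0.44 ± 0.10), the pocket protein gene Rbl1 (0.69 ± 0.19) and the condensin subunit Ncapg (0.49 ± 0.14), and Cdk6 was lower (-0.34 ± 0.08).

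E2f1 was also the single gene of the 37 that passed in unbound RNA of the heterozygous line. There 0 were higher and 1 lower, where 2.7% of 18073 genes were higher and 1.05% lower, with a median of 0.00. E2f1 held 10.5, 9.43, 10.2 and 9.61 CPM in the deprived pieces 14L, 15L, 17L and 17R, and 14.2, 12.4, 12.9 and 15.1 CPM in the control pieces 14R, 15R, 21L and 21R. The groups did not overlap, which is no further support in a gene picked on these libraries. The difference was -0.42 ± 0.09 (edgeR adjusted p = 0.019). The edgeR adjusted p was 0.094 without deprived 15L and 0.063 without deprived 17R. By the side letter or without 17R and 21L, 0 passed. Rrm2 held 31.2, 23.2, 25.7 and 24.8 CPM in deprived and 40.9, 30.1, 30.1 and 42.7 CPM in control pieces, overlapping by 1 library, and did not pass (-0.42 ± 0.12, edgeR adjusted p = 0.076). Mcm3 stood at 6.56 to 7.07 CPM in deprived and 7.00 to 8.54 CPM in control unbound libraries, and Pcna at 45.5 to 52.9 and 42.9 to 57.2. Eomes held 4.90 to 6.13 CPM in deprived and 0.964 to 2.31 CPM in control unbound libraries. Sox2 and Pax6 spanned 12.3 to 15.6 and 7.85 to 9.85 CPM over all 8 unbound libraries.

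In the knockout line 0 of the 37 passed in either fraction. In bound RNA 0% of 18324 genes were higher and 0.00546% lower, 0 of the 37 had an unadjusted p under 0.05, and the median was -0.05 (DESeq2 called 0 genes higher and 11 lower, and 0 of the 37). Mki67 held 86.1, 124, 114, 143 and 128 CPM in the deprived pieces of mice 7, 12, 18, 19 and 22, and 88.2, 97.6, 151, 132 and 156 CPM in the control pieces of the same mice. It was higher in the deprived piece of 2 mice and lower in that of 3. E2f1 held 17.0, 12.3, 17.9, 14.4 and 12.8 CPM in deprived and 12.8, 13.2, 8.40, 14.7 and 15.4 CPM in control pieces (0.21 ± 0.16). Pcna held 43.9, 53.3, 37.3, 48.5 and 51.8 CPM in deprived and 40.1, 44.3, 46.4, 43.0 and 42.0 CPM in control pieces. With mouse as a block 0 of the 37 passed as well.

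In unbound RNA of the knockout line 0% of 18421 genes were higher and 0.038% lower (DESeq2 called 0 higher and 35 lower, and 0 of the 37). E2f1 had the smallest p of the 37, with 11.1, 12.5, 13.7, 10.7 and 10.0 CPM in deprived and 10.8, 10.0, 8.97, 9.33 and 8.19 CPM in control pieces. The deprived piece was the higher one in all 5 mice, but the difference of 0.27 ± 0.10 did not pass (unadjusted p = 0.017, edgeR adjusted p = 1.0).

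The difference of the deprivation effect between the microglial lines was tested in 1 fit. In unbound RNA E2f1 passed, with an effect higher by 0.69 ± 0.14 in the knockout line (edgeR adjusted p = 0.018), where 0.508% of 19278 genes were higher and 1.28% lower. This was lost without the unbound deprived library of heterozygous piece 15L (adjusted p = 0.051) and with the heterozygous line grouped by side letter. Bound RNA gave 0 of the 37, with 2 at an unadjusted p under 0.05, where 0.194% of 19601 genes were higher and 0.316% lower; DESeq2 called 1 of the 37. E2f1 stood at 0.81 ± 0.21 there (edgeR adjusted p = 0.075), and 31 of the 37 lay below 0 with a median of -0.27. The share of all genes below 0 is not set beside this count, so it is not told apart from a shift of all genes.

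In the astrocyte line 0 of the 37 passed in either fraction. Neither did any other gene in bound RNA (0% of 17685 called, 1067 genes at an unadjusted p under 0.05; DESeq2 called 5 higher and 2 lower) or unbound RNA (0% of 16846 called, 1043 at an unadjusted p under 0.05; DESeq2 called 0). Cenpe held 164, 151, 154, 154 and 206 CPM in deprived replicates 1 to 5 of bound RNA, and 136, 124, 142, 122 and 144 CPM in control replicates 1 to 5. Its groups did not overlap, yet the difference of 0.29 ± 0.08 did not pass (edgeR adjusted p = 0.69). Ccne2 held 6.44, 6.59, 5.55, 6.72 and 6.51 CPM in deprived and 7.07, 7.01, 9.13, 9.56 and 7.73 CPM in control replicates, which did not overlap either (-0.36 ± 0.13, edgeR adjusted p = 0.73). Mki67 held 186, 173, 168, 196 and 250 CPM in deprived and 195, 166, 183, 192 and 190 CPM in control replicates. The median of the 37 was 0.04 in bound and 0.05 in unbound RNA, where Mcm3 (0.29 ± 0.12) and Ccna2 (0.15 ± 0.07) were the 2 with an unadjusted p under 0.05.

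Last, the levels were compared between the knockout and heterozygous lines. The pieces of a mouse entered this fit as separate libraries, so its p-values do not measure the spread between mice. In bound RNA 0 of the 37 passed, where 0.0204% of 19601 genes were higher and 0.0357% lower, but 35 of the 37 lay below 0, with a median of -0.16 beside 0.01 over all genes, and 8 had an unadjusted p under 0.05 (DESeq2 called 26 genes higher and 45 lower, and 0 of the 37). The counts of 35 and 8 are not set beside those of all genes, and the 37 genes are not independent replicates. Birc5, the survivin subunit of the chromosomal passenger complex, ranged from 3.35 to 6.03 CPM (median 4.18) in knockout and 4.97 to 7.24 (median 6.01) in heterozygous libraries. They overlapped, and the difference of -0.44 ± 0.12 did not pass (edgeR adjusted p = 0.25). Ccnb2 ranged from 3.24 to 8.13 (median 5.13) in knockout and 5.04 to 8.52 (median 6.85) in heterozygous libraries (-0.45 ± 0.14, edgeR adjusted p = 0.35). Mki67 ranged from 86.1 to 156 (median 126) in knockout and 114 to 152 (median 133) in heterozygous libraries. Pcna ranged from 37.3 to 53.3 (median 44.1) in knockout and 40.8 to 57.3 (median 48.0) in heterozygous libraries.

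The shift was smaller without knockout mouse 7. In 18 of the 37 genes both of its bound libraries lay below all other knockout libraries, and in 29 both of its unbound libraries did. Mouse 7 was singled out by its low sum over these same genes, and such a count was not made over all genes. Without this mouse 30 of the 37 lay below 0 in bound RNA, with a median of -0.08, and without mice 7 and 18 it was 27, with a median of -0.07. For fits without mouse 7 and for unbound RNA, counts below 0 over all genes are not set beside those of the 37. The bound libraries of mouse 7 also held the lowest summed microglial markers of the line, 201 and 242 CPM against 321 to 640. They held the lowest progenitor markers too, 349 and 378 against 447 to 702. In the same comparison 22 of 22 microglial markers lay below 0 with a median of -0.32, and 84 of 95 other cell cycle genes with a median of -0.12. In unbound RNA, where 0.0207% of 19278 genes were higher and 0.0467% lower, 0 of the 37 passed, 22 lay below 0 and the median was -0.01; without mouse 7 these were 6 and 0.08.

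**Figure D5:**
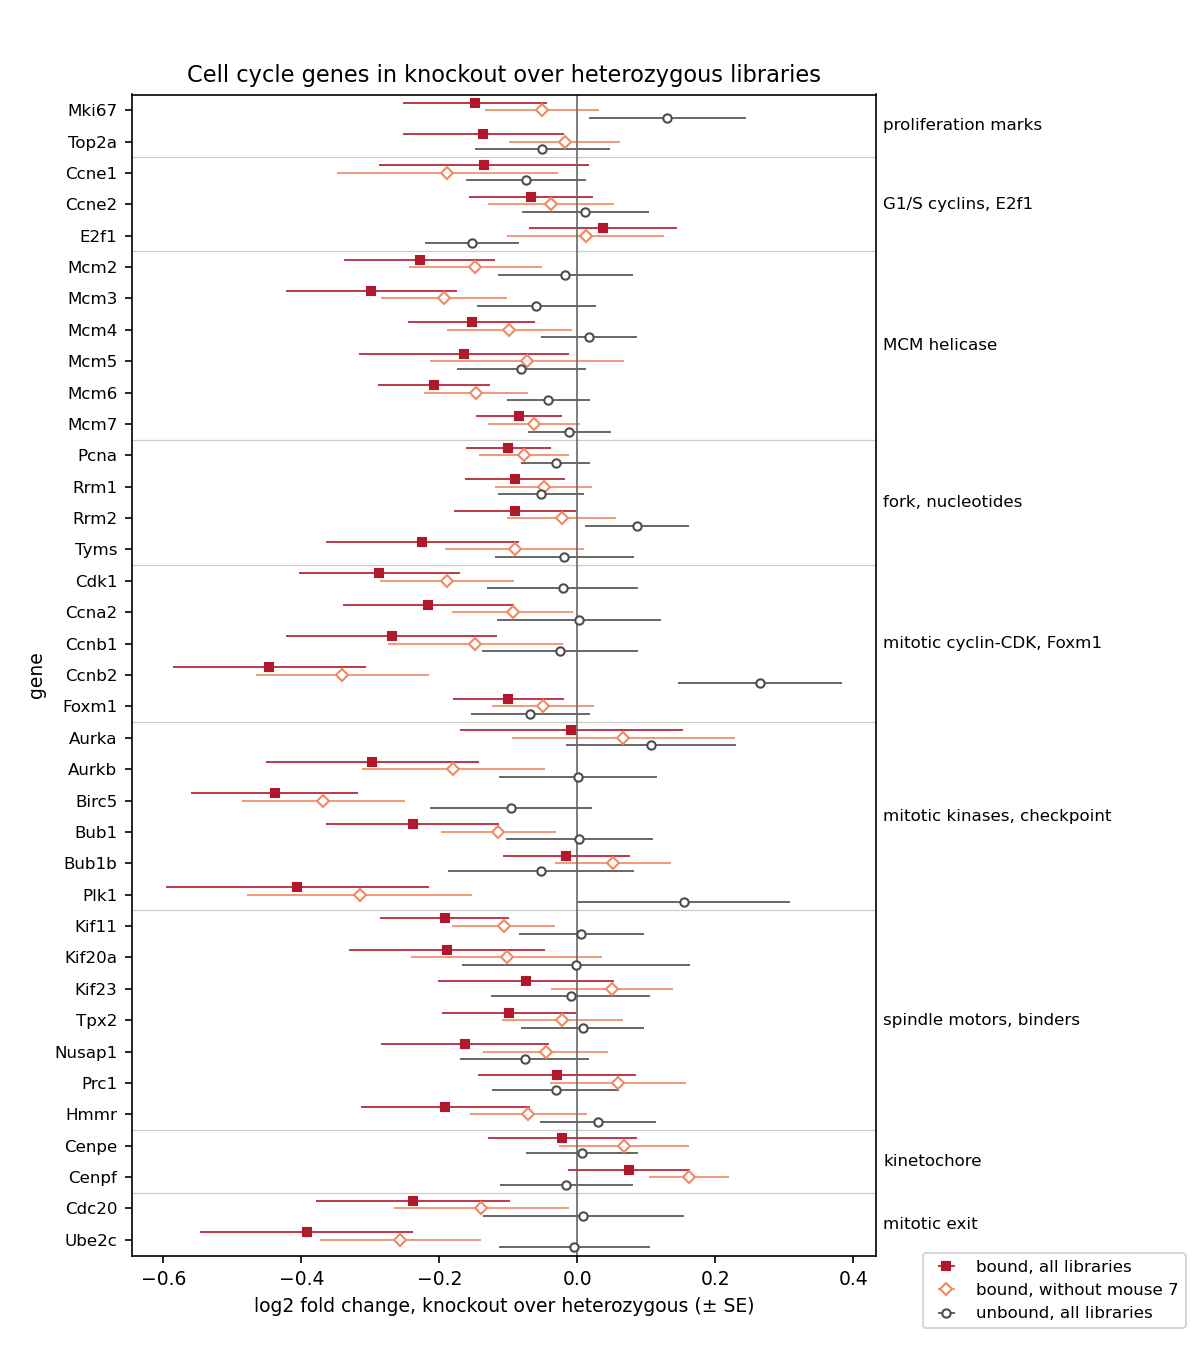
Log2 fold change of knockout over heterozygous libraries with its standard error (x axis) for each of the 37 genes (y axis, by role), in bound RNA with all libraries, in bound RNA without mouse 7, and in unbound RNA. None passed; 35 of 37 lie below 0 in bound RNA, 30 without mouse 7, and 22 in unbound RNA.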

How the data were processed

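The authors deposited 3 tables of raw read counts per gene, 1 for each mouse line, with 55385 genes in the knockout, 45682 in the heterozygous and 47971 in the astrocyte table. Per the submitters' processing notes, featureCounts 2.0.0, HISAT2 2.2.0, FastQC 0.11.9, cutadapt 2.9 and Trim Galore 0.6.4 were used with GRCm38 (mm10); settings and annotation are not given in the sources used here. Per the labels' protocols, the kits were NuGEN Ovation V2 for cDNA and Nextera XT for libraries. Libraries were grouped by title.

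Genes were tested across the whole table with edgeR 4.0.16 in R 4.3.3 (TMM, filterByExpr, quasi-likelihood F test, two-sided, Benjamini-Hochberg over all genes tested, threshold 0.05), and the 37 genes, named markers and a wider list of 97 cell cycle genes are reported. Fits of bound against unbound RNA held the 4 groups of a line, fits of deprived against control libraries only those groups, and lines were compared over the genes in both tables. CPM shown came from 1 TMM scaling of all 56 libraries. Exon lengths, positions and overlaps came from GENCODE vM21. Intervals and p-values cover counting error and the spread between libraries. The test was checked on simulated counts. The genes, lists and tests were chosen with earlier results of these data known. The rule for named genes takes Mki67, Top2a, Pcna, Mcm2 and the smallest p of each role in each comparison, up to 8 genes; values per library are printed for some of these and the rest are given by range, median, log2 difference or count; Mcm6 and Rrm1 were added in the heterozygous line as the remaining genes that passed.

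Alternatives were DESeq2 size factors, library totals as the only scaling, no filter on low counts, the DESeq2 1.42.0 Wald test, limma 3.58.1 voom with sample weights, replicate blocks, each library left out in turn, other groupings of the heterozygous line and, chosen after seeing the data, fits without knockout mouse 7 or mice 7 and 18. Further alternatives were sex as a term in every comparison and, for the comparison of genotypes, counts summed per mouse. Bound and unbound libraries of 1 tissue piece pair by label. Their deviations from group means correlated above 0.1 in 10 of 10 knockout, 8 of 8 heterozygous and 7 of 10 astrocyte pieces. Deprived and control pieces of a knockout mouse pair by label, with 4 of 5 mice above 0.1 in bound and 3 of 5 in unbound RNA. Of heterozygous mice 14 and 15, 1 of 2 was above 0.1 in each fraction.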

Additional observations from a re-analysis of the deposited data

Results flagged for a closer look

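Within groups of 4 or 5 libraries, 23 of 336 sets held 1 library whose gap to the nearest other passed Dixon's limit; chance gives about 1 in 20. The sets were not independent, since a library that stands apart does so in many genes.

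Knockout mouse 7 accounted for 6 of the 23, all low and in unbound RNA. Its deprived library held 470 summed CPM of the 37 genes, against 596 to 632 in the other deprived libraries, 5.23 of Mcm3 against 7.07 to 7.59, 11.9 of Ccna2 against 18.4 to 20.6, and 4.53 of Ccnb1 against 6.20 to 6.73. Its control library held 40.0 of Top2a, against 59.6 to 62.7 in the other controls, and 12.5 of Mcm4 against 15.1 to 16.1.

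In the heterozygous line the control piece 14R was high, with 97.3 CPM of Top2a in bound RNA against 76.1 to 76.7 in the other controls, 20.7 of Ccna2 against 15.4 to 16.2 and 36.0 of Kif11 against 30.3 to 31.1. In unbound RNA it held 23.9 of Ccna2 against 16.3 to 16.7. Control 15R held 8.08 of Prc1 in bound RNA against 6.83 to 7.01, and control 21R 24.3 of Mcm6 against 27.2 to 27.4. In unbound RNA the deprived piece 14L held 52.9 of Pcna against 45.5 to 46.5 and deprived 17R 25.3 of Mcm6 against 22.2 to 22.5.

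In bound RNA of the astrocyte line, deprived replicate 5 held 206 CPM of Cenpe, against 151 to 164 in the other deprived libraries, replicate 3 held 5.55 of Ccne2 against 6.44 to 6.72, and replicate 4 held 10.1 of Bub1b against 7.55 to 8.03. In its unbound RNA, deprived replicate 1 held 83.5 of Mki67 against 91.9 to 93.4. Deprived replicate 2 held 6.81 of Cdk1 against 4.85 to 5.32 and 3.27 of Cdc20 against 1.92 to 2.21. Deprived replicate 4 held 9.57 of Prc1 against 7.54 to 7.95. Control replicate 4 held 4.14 of Mcm3 against 4.66 to 4.83 and 36.1 of Cenpf against 42.8 to 45.3.

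A test of the difference between lines picked out 15 values. For bound over unbound RNA, the heterozygous minus the astrocyte log2 difference was 0.72 for Cenpe, 0.49 for Ccne2 and 0.28 for Mcm6. It was -0.80 for Ube2c, -0.70 for E2f1, -0.58 for Plk1, -0.56 for Ccnb1, -0.55 for Prc1, -0.43 for Aurkb, -0.37 for Cdk1, -0.33 for Ccna2, -0.31 for Nusap1, -0.27 for Rrm2 and -0.26 for Tpx2. For deprivation in unbound RNA, the knockout minus the heterozygous effect on E2f1 was 0.69, where 0.508% of 19278 genes were higher and 1.28% lower.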

How the results depend on the processing

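With the tissue piece as a replicate block, 18 of the 37 genes were higher and 7 lower in bound RNA of the knockout line, 26 and 3 in the heterozygous line and 27 and 2 in the astrocyte line, and 3 were higher and 12 lower, now with Cdc20 (-0.43, edgeR adjusted p = 0.042), in the heterozygous minus the astrocyte line. With mouse as a block the knockout line gave 0 for deprivation in both fractions. Title numbers of the astrocyte and heterozygous lines name no shared animal beyond mice 14 and 15; as a block they gave 0 in the astrocyte line (0 of 5 pairs over 0.1 in bound and 3 of 5 in unbound RNA) and 6 higher and 1 lower in bound RNA of the heterozygous line. The block changed no other call count of the 37 by over 1.5 times but that of unbound heterozygous RNA, with 2 lower.

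Library totals as the only scaling gave 1 lower in bound RNA of the knockout line, 10 higher for deprivation in bound RNA of the heterozygous line, and 11 higher and 3 lower in the heterozygous minus the astrocyte line, and there turned the sign of Rrm2 (0.023), Tpx2 (0.032) and Mcm7 (0.28), and of Pcna within the heterozygous line (0.15). This setting moved the median of all genes in the same direction. With no filter, 4 were lower in the heterozygous minus the astrocyte line.

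For deprivation in the heterozygous line, grouping by side letter gave 0 higher and 0 lower in bound and 0 lower in unbound RNA, leaving out 17R and 21L gave 1 higher in bound and 0 lower in unbound RNA, and mice 14 and 15 alone gave 1 higher in bound RNA. In unbound RNA no filter and the DESeq2 Wald test gave 2 lower. In the knockout minus the heterozygous line, no filter and DESeq2 gave 1 higher in bound and 2 in unbound RNA, and the side letter 0 in unbound RNA. Leaving out 1 library at a time gave 3 to 8 higher in bound and 0 to 2 lower in unbound RNA of the heterozygous line, and 0 to 1 higher in the knockout minus the heterozygous line in unbound RNA. The causes were not tested. Over single genes, 9318 of the values with 1 library left out kept direction and call, 44 gained and 110 lost a call; of the other settings 4923 kept both, 53 gained, 52 lost a call and 4 changed sign. Depth limits genes of few counts such as Cdc20, Plk1 and Kif20a.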

Other observations

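Across the 37 genes, the order by bound over unbound difference was much alike in the lines. Spearman's rho was 0.84 between the knockout and heterozygous line, 0.61 between the knockout and astrocyte line and 0.71 between the heterozygous and astrocyte line. These are correlations across genes, which are not independent replicates, and the lines share the way libraries were made. With exon length the rho was 0.41 in the knockout, 0.22 in the heterozygous and 0.01 in the astrocyte line.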
